A study of Mus musculus with 8 samples.

Results

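Collagen-modifying enzymes and chaperones, 10 genes, taken by gene symbol from the 54281 genes of the tables, are described here in epiblast-like cells (EpiLCs): 3 prolyl 4-hydroxylase alpha subunits (*P4ha1*, *P4ha2*, *P4ha3*), their shared beta subunit *P4hb*, 3 lysyl hydroxylases (*Plod1*, *Plod2*, *Plod3*), the hydroxylysine galactosyltransferase *Colgalt1*, the prolyl 3-hydroxylase partner *Crtap* and the collagen chaperone *Serpinh1* (HSP47). RNA-seq of 4 *Tet1* KO lines was set against 4 WT lines, with 1 library per line. All 8 are male embryonic stem cell lines derived from blastocysts of the (B6 × 129S6)F1-Tet1tm1Koh strain. EpiLCs were harvested on day 2 after a switch from 2i and LIF to fibronectin-coated plates, where the N2B27 medium held bFGF (12 ng/ml) and 1% KOSR and no Activin A was added. Both groups therefore shared the same strain, medium and day, and differed by the *Tet1* genotype. The library columns also carried the suffix b1 (KO1, KO9, WT7, WT17) or b2 (KO15, KO25, WT12, WT34), whose meaning the labels do not give. The methods describe KO and WT lines of this cross as littermate pairs, but neither they nor the labels say which KO line goes with which WT line, so litters were not modelled and p-values measure the spread between these lines.

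Collagen chains are modified in the endoplasmic reticulum while they fold. Prolyl 4-hydroxylase, a tetramer of alpha subunits with the protein disulfide isomerase P4HB, makes the hydroxyproline that stabilizes the triple helix, and lysyl hydroxylases make the hydroxylysine that carries sugars and later cross-links. SERPINH1 binds the folded helix, and the resulting procollagen is exported. Collagen IV, the network-forming collagen of basement membranes, is made by epiblast and extraembryonic cells of the early embryo and needs the same enzymes.

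Total estimated counts per line ran from 13916576 to 23680839. *Tet1* had 38.4 to 54.2 CPM (counts scaled to the TMM-adjusted library size) in KO lines, against 559 to 851 CPM in WT lines, so the libraries matched their labels. Its log2 fold change was −3.97 (SE 0.15, edgeR quasi-likelihood test, adjusted p = 2.09e-05). On the TPM scale its fold change was smaller, −1.57 with limma on log2(TPM + 1) (adjusted p = 0.0843). The 8 markers of core and formative epiblast summed to between 892 and 1015 TPM (transcript abundance corrected for length and depth) in all 8 lines, led by *Pou5f1* and *Dnmt3b*. Naive markers, led by *Zfp42* and *Esrrb*, summed to between 14.0 and 37.5 TPM. Extraembryonic endoderm markers (*Dab2* and *Lama1* highest, *Ttr* at 0 in all lines) reached at most 6.34 TPM and mesoderm markers (*Bmp4* and *T* highest) at most 7.08 TPM. The fibroblast markers, and the markers of the other lists that were called between the suffixes, are described with the suffix.

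The genes lie on 7 chromosomes (GENCODE M21 annotation, build GRCm38). The alpha subunits are *P4ha1* (chr10:59323296-59373304, plus strand), *P4ha2* (chr11:54100095-54131665, plus) and *P4ha3* (chr7:100285520-100319699, plus), and the beta subunit is *P4hb* (chr11:120560298-120573253, minus). The lysyl hydroxylases are *Plod1* (chr4:147909753-147936767, minus), *Plod2* (chr9:92542223-92608428, plus) and *Plod3* (chr5:136987019-136996648, plus). *Colgalt1* lies at chr8:71610998-71624911 (plus), *Crtap* at chr9:114375134-114390675 (minus) and *Serpinh1* at chr7:99345376-99353239 (minus). All are annotated as protein coding, and *Plod2* (*Gm38391*), *Plod3* (*Znhit1*), *Colgalt1* (*Unc13a*) and *Crtap* (*4930520O04Rik*) overlap a gene on the opposite strand. The methods name a stranded mRNA-seq kit but give no strand setting for the counting. If strand was not used in the counting, reads from these overlaps may be assigned to either gene.

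The start regions of 3 genes are shown because they are *P4ha1*, with the estimate furthest from no change in KO against WT, and *Plod1* and *Colgalt1*, called between the suffixes. Capitals mark the core shared by hypoxia response elements, searched on both strands as the letters ACGTG and, with another first base, as the letters GCGTG. The first form is also part of the palindromic E-box, with which it overlaps. Each run is 300 bases of RefSeq promoter sequence on build GRCm38.p6, written 5′ to 3′ on the gene's strand. The *P4ha1* run is chr10:59323046-59323345 on the plus strand, that of *Plod1* is chr4:147936727-147937026 on the minus strand, and that of *Colgalt1*, the first of its 2 listed starts, is chr8:71610774-71611073 on the plus strand.
P4ha1: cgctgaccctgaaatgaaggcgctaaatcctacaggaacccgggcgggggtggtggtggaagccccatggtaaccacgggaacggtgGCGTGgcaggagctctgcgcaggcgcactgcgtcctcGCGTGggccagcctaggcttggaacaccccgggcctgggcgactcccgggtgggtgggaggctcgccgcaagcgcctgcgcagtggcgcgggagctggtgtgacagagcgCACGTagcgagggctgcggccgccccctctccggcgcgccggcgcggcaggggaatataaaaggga
Plod1: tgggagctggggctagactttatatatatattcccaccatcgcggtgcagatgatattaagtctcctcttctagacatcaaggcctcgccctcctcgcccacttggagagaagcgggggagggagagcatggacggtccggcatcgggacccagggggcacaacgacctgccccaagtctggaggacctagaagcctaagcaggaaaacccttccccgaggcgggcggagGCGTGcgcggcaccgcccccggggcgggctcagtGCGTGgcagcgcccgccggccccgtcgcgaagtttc
Colgalt1: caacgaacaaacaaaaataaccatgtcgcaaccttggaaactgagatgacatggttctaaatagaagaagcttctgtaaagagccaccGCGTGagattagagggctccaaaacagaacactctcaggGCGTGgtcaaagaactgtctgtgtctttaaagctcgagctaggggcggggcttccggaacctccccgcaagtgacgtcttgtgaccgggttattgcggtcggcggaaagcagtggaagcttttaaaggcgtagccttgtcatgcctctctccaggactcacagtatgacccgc

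Of the 10 genes, 9 had a promoter in the RefSeq table, and *Plod2* was not matched. At least 1 match of the core was found in 8 of the 9, all but *P4ha3*, against 43.8% of the 32851 promoters of the table. The member promoters held 16 to 32 CpG dinucleotides, against a median of 7 over all promoters, and 71.8% of the 10841 promoters with at least 16 CpG dinucleotides held the core. *P4ha1* has 3 matches, *Plod1* 2 and *Colgalt1* 2 in the run shown. A match is a description of the letters and no measurement of binding.

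The genes spanned a wide range of levels. *P4hb* was the most abundant with 125 ± 11.4 TPM (SD, n = 8 lines), and its percentile among all genes of the tables was 98.4. *Serpinh1* followed with 26.8 ± 4.20 TPM and *Crtap* with 14.6 ± 2.65 TPM, and neither *P4hb* and *Serpinh1* nor *Serpinh1* and *Crtap* overlapped in any of the 8 lines. *Colgalt1* (10.7 ± 0.862 TPM) and *Plod3* (10.3 ± 1.48 TPM) were not separable, since *Colgalt1* was above *Plod3* in 4 of 8 lines. *Crtap* exceeded *Colgalt1* in 7 of 8 lines, and *Plod3* exceeded *Plod2* (7.70 ± 1.10 TPM) in 7 of 8. *P4ha2* (4.29 ± 2.83 TPM), *P4ha1* (3.37 ± 0.729 TPM) and *Plod1* (3.06 ± 0.889 TPM) lay within each other's spread. *P4ha3*, the least abundant alpha subunit, had 0.0852 ± 0.0307 TPM from 2.00 to 11.1 estimated counts per line and did not pass the filter on low counts. The other 9 genes were tested.

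**Figure D1:**
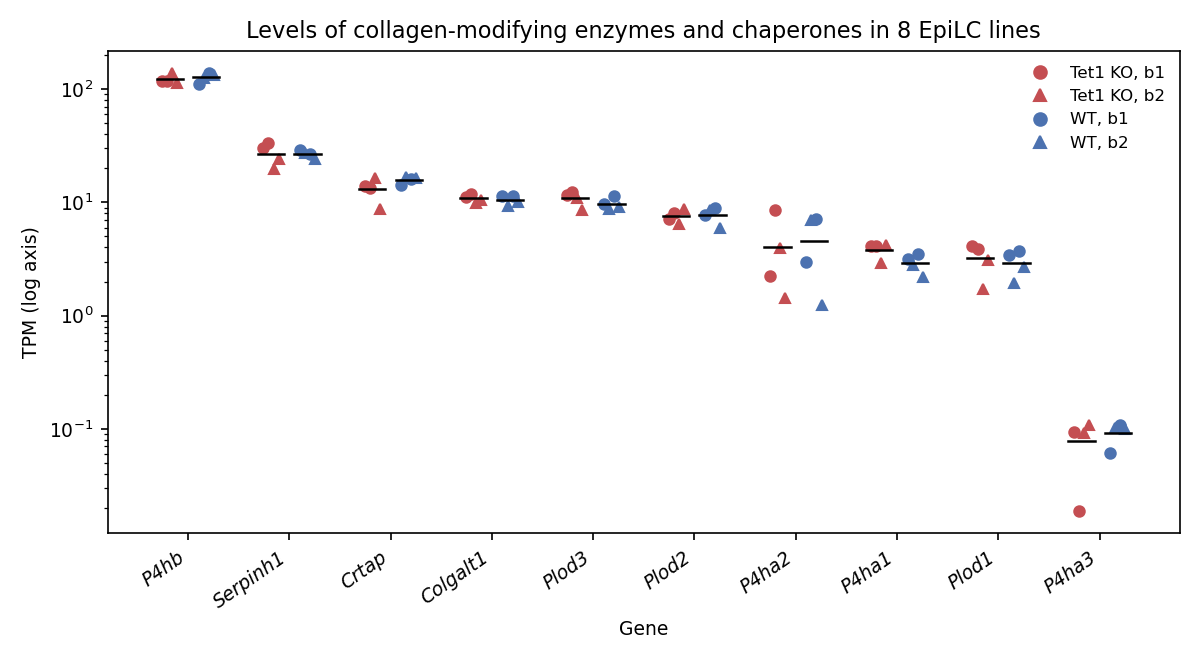
TPM on a log axis for the 10 genes in order of their mean over 8 lines, with the 4 *Tet1* KO lines (red) left of the 4 WT lines (blue); circles are b1 lines, triangles b2 lines and black bars group means. *P4hb* stands highest at 125 TPM on average and *P4ha3* lowest at 0.0852 TPM, and for each gene the KO and WT points overlap.

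The question put to these genes was whether they differed between *Tet1* KO and WT EpiLCs. None of the 9 tested genes was called (edgeR, Benjamini-Hochberg adjusted p under 0.05), where 0.0405% of all 17272 tested genes were. None was under an unadjusted p of 0.05 either, against 5.62% of all genes, and DESeq2, with 0.614% of genes called, called 0 of the 9. Of the fold changes, 7 were positive and 2 negative, with a median log2 fold change of 0.06 over the 9 genes and −0.00 over all genes tested. In none of the 9 did the 4 KO and 4 WT lines separate without overlap, as they did in 4.19% of genes.

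Among the catalytic alpha subunits, *P4ha1* stood furthest from no change. It had 23.7, 24.4, 16.8 and 23.6 CPM in lines KO1, KO9, KO15 and KO25, against 20.1, 15.6, 20.2 and 13.5 CPM in lines WT7, WT12, WT17 and WT34. Of the KO lines, 3 lay above every WT line, and KO15 lay between the higher and the lower WT lines. The log2 fold change was 0.35 (SE 0.18, 95% interval −0.04 to 0.75, edgeR unadjusted p = 0.0751, adjusted p = 0.933). Within each suffix both KO lines lay above both WT lines, a pattern found in 1 of the 9 genes and in 6.51% of all genes. The reverse, both KO lines below both WT lines within each suffix, was found in 0 of the 9 and in 6.08% of all genes. The log2 fold change was 0.26 within b1 and 0.48 within b2, and with the suffix as a block it was 0.36 (unadjusted p = 0.0145, adjusted p = 0.292, edgeR). In the block fit, 1 of the 9 genes and 11.9% of all genes had an unadjusted p under 0.05. *P4ha1* lies on chromosome 10, 3.43 Mb from *Tet1* on the same chromosome, and the other 9 genes lie on other chromosomes. The loss of *Tet1* and the DNA that flanks the targeted allele cannot be told apart in these lines.

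*P4ha2*, the other alpha subunit expressed here, had 9.19, 8.47, 6.07 and 6.64 CPM in lines KO1, KO9, KO15 and KO25, against 6.82, 10.6, 7.72 and 4.96 CPM in lines WT7, WT12, WT17 and WT34. The groups overlapped throughout, and the highest and the lowest line were both WT. Its log2 fold change was 0.01 with a 95% interval of −0.54 to 0.56, which allows a change of that size in either direction. For *P4ha3* the counts were too few for a test, with 0.422, 0.100, 0.363 and 0.292 CPM in lines KO1, KO9, KO15 and KO25, against 0.275, 0.459, 0.377 and 0.354 CPM in lines WT7, WT12, WT17 and WT34.

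The beta subunit *P4hb*, which also works as a protein disulfide isomerase outside the enzyme, had 298, 303, 355 and 295 CPM in lines KO1, KO9, KO15 and KO25, against 300.3, 298, 309 and 350.4 CPM in lines WT7, WT12, WT17 and WT34. A single line of each genotype, KO15 and WT34, stood above the rest, and both carried the suffix b2. In the fit without the suffix, the *P4hb* interval was the narrowest of the 9 genes, with a log2 fold change of −0.01 (95% interval −0.21 to 0.19). The ratio of *P4hb* to the summed alpha subunits, both in TPM, was 16.9 ± 5.12 in KO lines and 20.4 ± 11.9 in WT lines (SD, n = 4 each). The highest TPM ratio was 37.8, in WT34. With both in CPM, the ratio was 10.8 ± 3.01 in KO lines and 12.9 ± 3.78 in WT lines.

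The lysyl hydroxylases gave small differences. *Plod1* had 23.2, 22.4, 12.6 and 17.4 CPM in lines KO1, KO9, KO15 and KO25, against 22.7, 9.97, 23.6 and 15.8 CPM in lines WT7, WT12, WT17 and WT34. In the fit without the suffix its interval was the widest, from −0.58 to 0.72 around a log2 fold change of 0.07. With the suffix as a block, the *Plod1* interval ran from −0.26 to 0.45. *Plod2*, which hydroxylates the telopeptides of fibrillar collagens, had 45.1, 49.1, 43.7 and 52.2 CPM in the same KO lines, against 42.3, 50.3, 44.7 and 39.3 CPM in the same WT lines (log2 fold change 0.11, 95% interval −0.13 to 0.34). *Plod3*, which also carries glycosyltransferase activity and is needed for collagen IV assembly in mice, had 39.5, 44.1, 36.7 and 31.4 CPM in these KO lines, against 38.3, 34.4, 39.6 and 36.2 CPM in these WT lines (log2 fold change 0.03, 95% interval −0.23 to 0.30). KO and WT lines were interleaved for all 3. Within the family, *Plod3* held 50.2 ± 6.18% of the summed TPM in KO lines and 47.6 ± 2.70% in WT lines, *Plod2* held 35.3 ± 5.18% and 38.2 ± 4.78%, and *Plod1* held 14.5 ± 3.83% and 14.3 ± 2.91%, in KO and then in WT lines (SD, n = 4 each). In CPM, which does not correct for length, *Plod2* came first, with 45.8% in KO lines and 44.7% in WT lines, and *Plod3* second, with 36.3% in KO lines and 37.4% in WT lines.

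*Colgalt1*, which adds galactose to hydroxylysine, had 82.0, 87.1, 71.1 and 75.6 CPM in lines KO1, KO9, KO15 and KO25, against 84.1, 63.1, 76.8 and 73.4 CPM in lines WT7, WT12, WT17 and WT34 (log2 fold change 0.09, 95% interval −0.15 to 0.33). *Crtap*, a subunit of the prolyl 3-hydroxylase complex, had 30.7, 27.3, 34.9 and 21.4 CPM in those KO lines, against 30.8, 33.4, 32.4 and 35.9 CPM in those WT lines. Of the 4 KO lines, 3 lay below every WT line and KO15 lay among the WT lines, which gave the lowest estimate of the 9 genes, a log2 fold change of −0.21 (95% interval −0.54 to 0.12, edgeR unadjusted p = 0.185, adjusted p = 0.998). Without KO25 the estimate was −0.09, and without KO15 it was −0.32 (edgeR unadjusted p = 0.0464, adjusted p = 0.651). *Serpinh1* had 114, 116, 76.5 and 99.9 CPM in KO lines KO1, KO9, KO15 and KO25, against 108, 97.9, 96.2 and 87.6 CPM in WT lines WT7, WT12, WT17 and WT34. The KO lines held both the highest and the lowest *Serpinh1* value, and the log2 fold change was 0.06 (95% interval −0.24 to 0.36).

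**Figure D2:**
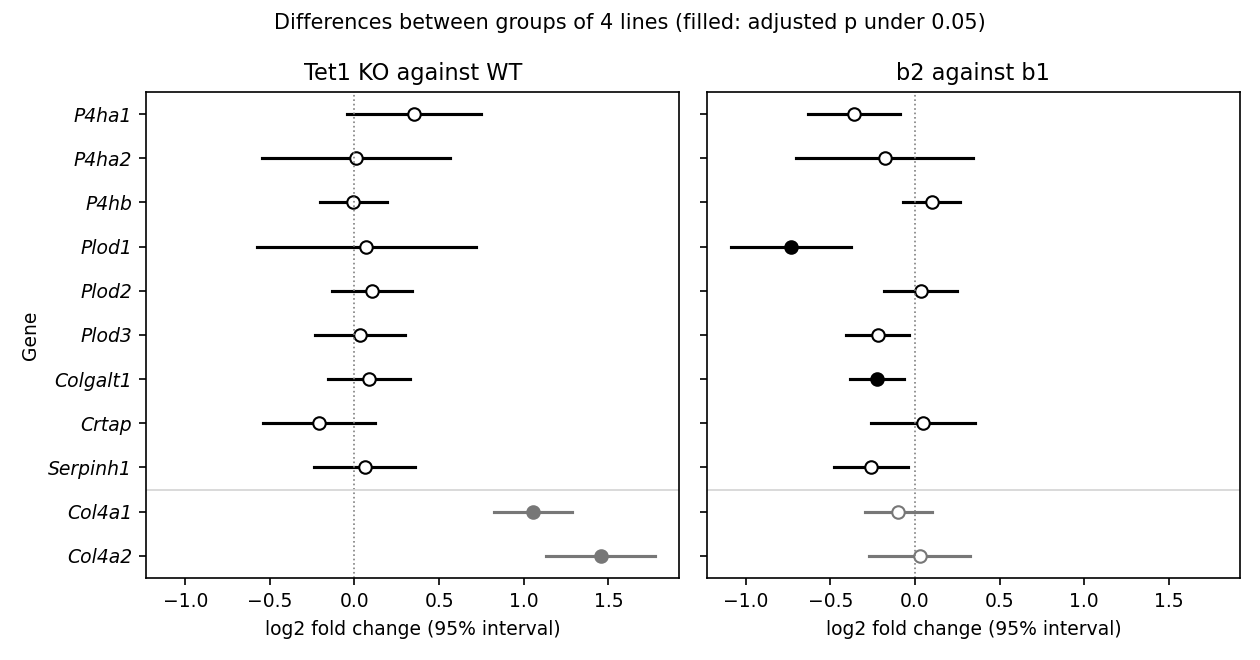
Log2 fold changes (points) with 95% intervals (bars) from edgeR for the 9 tested genes and, in grey, *Col4a1* and *Col4a2*, in *Tet1* KO against WT lines (left) and b2 against b1 lines (right), 4 lines a group; filled points have an adjusted p under 0.05. On the left the 9 intervals include 0 while *Col4a1* lies at 1.06 and *Col4a2* at 1.46, and on the right *Plod1* (−0.73) and *Colgalt1* (−0.22) are filled.

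The collagen IV genes *Col4a1* and *Col4a2* served as the reference because they had been found to differ between the genotypes in these lines. *Col4a1* had 54.6 to 65.4 CPM in KO lines and 25.6 to 30.5 CPM in WT lines, and *Col4a2* had 20.2 to 29.3 CPM in KO lines and 7.86 to 9.80 CPM in WT lines. Their log2 fold changes were 1.06 (95% interval 0.83 to 1.29) and 1.46 (95% interval 1.13 to 1.78). The highest upper bound of the 9 intervals, 0.75 for *P4ha1*, was below the lower bound of *Col4a1*. Per collagen IV count (*Col4a1* plus *Col4a2*), *Serpinh1* had 1.02 to 1.39 counts in KO lines and 2.39 to 3.20 counts in WT lines, and *P4ha1* had 0.224 to 0.290 counts in KO lines and 0.387 to 0.597 counts in WT lines. These ratios are a description, since the denominator was chosen for its difference.

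Line-to-line covariation with collagen IV was then examined. KO and WT lines do not overlap in *Col4a1* or *Col4a2*, so each gene's log2 CPM was centred within genotype before correlation over the 8 lines, and p-values came from exact permutation within genotypes. Of 20 relations (10 genes with 2 collagen genes), 13 were positive, and 0 had an unadjusted permutation p under 0.05. The strongest was *P4ha2* with *Col4a1* (Pearson r = 0.69, Spearman rho = 0.71, exact permutation p = 0.0938, adjusted p = 0.774), which was 0.57 without the 2 lines farthest from the median and 0.47 in TPM. *P4ha2* with *Col4a2* gave an r of −0.00. The lowest was *Crtap* with *Col4a2*, at r = −0.65. The sign was kept in 16 of 20 relations when the suffix was also centred, in 16 of 20 with log2(TPM + 1), and in 10 of 20 without the 2 farthest lines.

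**Figure D3:**
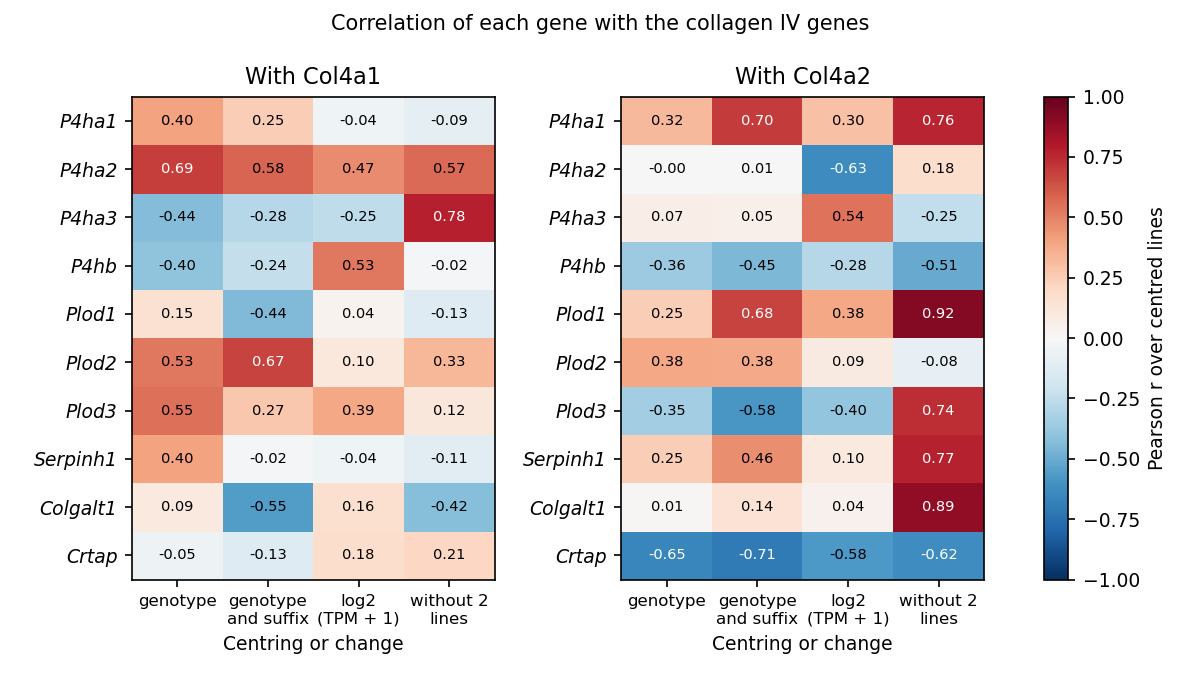
Pearson r of each gene with *Col4a1* (left) and *Col4a2* (right) over 8 lines, centred by genotype on log2 CPM (first column), by genotype and suffix, by genotype on log2(TPM + 1), and by genotype without the 2 lines farthest from the median. Red is positive and blue negative; the strongest value of the first column is 0.69 for *P4ha2* with *Col4a1*, and 0 of the 20 relations in that column passed the permutation test.

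The suffix divided the lines further than the genotype did. Between b2 and b1, with genotype in the model, 24.6% of all genes were called, and 2 of the 9 genes were, both lower in b2 as were 11% of all genes. *Plod1* had 12.6, 17.4, 9.97 and 15.8 CPM in the b2 lines KO15, KO25, WT12 and WT34, against 23.2, 22.4, 22.7 and 23.6 CPM in the b1 lines KO1, KO9, WT7 and WT17. Every b2 line lay below every b1 line, with a log2 fold change of −0.73 (SE 0.16, edgeR adjusted p = 0.00964). *Colgalt1* fell less, with 71.1, 75.6, 63.1 and 73.4 CPM in these b2 lines, against 82.0, 87.1, 84.1 and 76.8 CPM in these b1 lines (log2 fold change −0.22, SE 0.07, edgeR adjusted p = 0.0477). *Plod3* did not overlap between the suffixes either (31.4 to 36.7 CPM in b2 lines, 38.3 to 44.1 CPM in b1 lines). That makes 3 of 9 genes lying below and 0 lying above. Over all genes, 12.4% lay below and 26.3% did not overlap in either direction. *P4ha1* (log2 fold change −0.36, adjusted p = 0.0558), *Serpinh1* (−0.26, adjusted p = 0.0822) and *Plod3* (−0.22, adjusted p = 0.0823) were not called by edgeR but had an unadjusted p under 0.05, which with the 2 called genes makes 5 of 9, against 37.8% of all genes. *P4ha1* was called in 5 of the 15 alternatives, among them DESeq2 (adjusted p = 0.0359) and edgeR without KO25 (adjusted p = 0.00850). *P4hb*, *Plod2* and *Crtap* had log2 fold changes of 0.10, 0.03 and 0.05. *P4ha2* had −0.18 (edgeR adjusted p = 0.619), and without WT12 it had −0.52 and was called (adjusted p = 0.0239). The *Colgalt1* call was lost when any 1 line other than WT34 was left out, and in TPM (limma with a pseudocount of 1, 11.5% of genes called) 0 of the 9 genes passed.

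The summed level of the fibroblast (feeder cell) markers was lower in b2, but its members had no common direction. Of 12 markers 6 were tested, 3 with a positive and 3 with a negative log2 fold change (median 0.22), and 1 was called each way. The 12 markers summed to between 5.84 and 17.9 TPM in b2 lines and between 20.2 and 30.4 TPM in b1 lines, most of it *Thy1* (log2 fold change −0.95 in b2 against b1, edgeR adjusted p = 0.0474), with *Dcn* next. The *Thy1* call was lost in 10 of 15 alternatives, with adjusted p up to 0.135. The defining markers *Postn* and *Mgp* were at 0 in all 8 lines, and *Fbn1* moved the other way (log2 fold change 1.12). Per the methods, the stem cell lines were kept on feeder cells, then passaged repeatedly on gelatin before conversion to EpiLCs. Whether any feeder cells remained in these libraries was not tested, and neither was a part of such cells in the suffix differences. In bulk libraries, fewer cells of a type and less RNA per cell cannot be told apart. Of the 8 core and formative epiblast markers, *Fgf5* and *Pou3f1* were called higher in b2 by edgeR, 25% against 24.6% of all genes. Of 9 tested extraembryonic endoderm markers, *Foxa2* was called higher in b2 (11.1%). Of the tested naive and mesoderm markers, 0 of 6 and 0 of 4 were called. A genotype-by-suffix interaction was called in 0 of 17272 genes (0%) by edgeR, of which 1.31% had an unadjusted p under 0.05, and in none of the 9 genes was its unadjusted p under 0.05.

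*P4ha2* depended on the scale on which it was read. In TPM it had 2.22, 8.50, 3.94 and 1.44 in KO1, KO9, KO15 and KO25, against 2.97, 6.95, 7.07 and 1.24 in WT7, WT12, WT17 and WT34, a span of 6.86-fold over the 8 lines, while in CPM it spanned 2.14-fold. The scales differ by the transcript length that the deposited TPM divides by, which is an average over a gene's transcripts weighted by their estimated abundance. *P4ha2* has 15 transcripts of 265 to 3060 bases annotated in GENCODE M21, more than any other of the 10 genes. The methods name a later GENCODE release for the quantification, and its transcripts may differ from these. Relative to its geometric mean over the 8 lines, the length that TPM divides by was 1.92, 0.460, 0.711 and 2.14 in KO1, KO9, KO15 and KO25, against 1.03, 0.742, 0.539 and 1.80 in WT7, WT12, WT17 and WT34. Long and short values occurred in both genotypes and both suffixes. The highest value was 4.66 times the lowest, where the median gene reached 1.22 and 185 of 13169 genes reached at least as much. The other members with tested counts reached between 1.04 (*Colgalt1*) and 1.33 (*Plod1*).

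**Figure D4:**
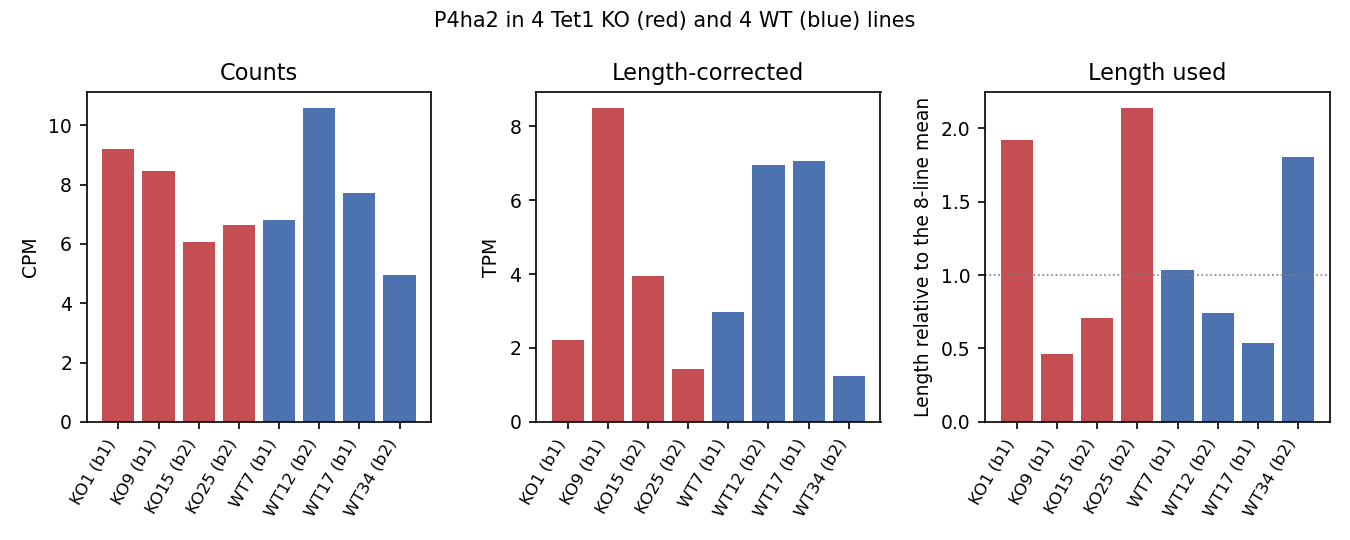
*P4ha2* in 4 *Tet1* KO lines (red, left) and 4 WT lines (blue, right) as CPM, as TPM, and as the transcript length used for TPM relative to its geometric mean over the 8 lines. The bars span 2.14-fold in CPM and 6.86-fold in TPM, and the lines with the longest length (KO25 at 2.14, KO1 at 1.92) are among the lowest in TPM.

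The share of the prolyl 4-hydroxylase alpha transcripts that came from *P4ha1* moved with this choice. In TPM it was 52.9 ± 18.8% in KO lines and 43.6 ± 15.7% in WT lines, and in CPM it was 73.7 ± 2.68% in KO lines and 68.9 ± 7.04% in WT lines (SD, n = 4 each). In TPM the order of *P4ha1* and *P4ha2* differed by line, with *P4ha2* above *P4ha1* in 4 of 8 lines. In CPM *P4ha1* held 58.5 to 77.3% over the 8 lines and lay above *P4ha2* in each.

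Other genes of collagen biosynthesis were counted next. Of 27 genes for collagen folding, crosslinking and secretion, 24 were tested and 0 were called in KO against WT by edgeR, with 5 under an unadjusted p of 0.05 and a median log2 fold change of 0.04. The smallest p belonged to *Adamts14*, a procollagen N-propeptidase on chromosome 10, 1.53 Mb from *Tet1* (log2 fold change 0.72, edgeR adjusted p = 0.424), which DESeq2 called (adjusted p = 0.0244), the 1 gene of the list it called. *Bmp1*, the procollagen C-proteinase, had a log2 fold change of 0.74, *Sparc*, which binds collagen in the matrix, 0.45, and the prolyl 3-hydroxylase *P3h2* 0.75, with edgeR adjusted p of 0.546, 0.579 and 0.791. Of 36 collagen chains, 24 were tested, 2 were called (*Col4a1* and *Col4a2*) and the median was 0.19, which ran from 0.05 without WT7 to 0.29 without WT12. The limma forms, which keep only chains with a mean of at least 1 TPM, gave 0.46 and 0.77 with pseudocounts of 1 and 0.1. *Col5a1* (0.90, adjusted p = 0.163) and *Col14a1* (1.19, adjusted p = 0.507) came next and were not called by edgeR over the 8 lines. *Col5a1* was called by DESeq2 (adjusted p = 4.27e-05), and by edgeR within b1 (adjusted p = 0.0429) and without WT12 (adjusted p = 0.0386).

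General protein folding and inducible programs gave no calls between the genotypes. The list of endoplasmic reticulum chaperones and unfolded protein response genes held 22, of which *Ero1a* and *Ero1b* matched no gene symbol. They were not looked up under older symbols. The other 20 were tested and 0 called in KO against WT, with 0 under an unadjusted p of 0.05 (edgeR). The chaperones *Pdia3* and *Hsp90b1* had the smallest p, with log2 fold changes of 0.22 and 0.17. Of 20 hypoxia-inducible genes, a class to which *P4ha1*, *P4ha2*, *Plod1* and *Plod2* belong in other cells, 19 were tested and 0 called, led by *Bnip3* (−0.29) and the lactate dehydrogenase *Ldha* (0.24), 2 of them under an unadjusted p of 0.05. Of 12 TGF-beta and fibrosis-type targets, 12 were tested and 0 called, led by *Ltbp1* (0.52) and *Tagln* (0.62), 1 of them under an unadjusted p of 0.05.

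Between the suffixes, 50% of the tested TGF-beta genes were called, 25% of the endoplasmic reticulum genes, 21.1% of the hypoxia-inducible genes, and 8.33% each of the collagen folding genes and the collagen chains, against 24.6% of all genes. Among the collagen folding and secretion genes, *Mia2*, a cargo receptor of collagen export (log2 fold change 0.27, edgeR adjusted p = 0.0147), and the proteinase enhancer *Pcolce2* (0.69, adjusted p = 0.0378) were higher in b2, 2 of 24 tested. Among 20 endoplasmic reticulum genes, 3 were higher in b2, *Hspa5* (BiP, 0.39), *Dnajb9* (0.61) and *Dnajb11* (0.55), and 2 were lower, the stress factor *Ddit3* (−2.61) and *Sdf2l1* (−0.42). Among 19 hypoxia-inducible genes, 3 were lower in b2, *Vegfa* (−0.64), *Pgk1* (−0.44) and *Aldoa* (−0.29), and *Pfkfb3* was higher (0.32). The TGF-beta list had 5 of 12 higher, among them *Skil* (1.41), *Smad7* (2.46) and *Thbs1* (1.78), and 1 lower (*Acta2*, −1.51). Of the collagen chains, *Col11a2* (2.98) was higher and *Col17a1* (−1.22) lower, while *Col4a1* (−0.10) and *Col4a2* (0.03) were not called. Of the calls named here, that of *Pcolce2* was lost in 9 of 15 alternatives, that of *Pfkfb3* in 12 and that of *Mia2* in 5.

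By Pearson correlation of log2 CPM over the 8 lines, the genes most like *P4ha1* among 12571 genes were *Map3k8* (r = 0.99), *Glp1r* (0.99), *Prkaa2* (0.98), *Stard5* (0.97) and *Unc93b1* (0.97). These are the 5 highest of many values over 8 points that share libraries and depth, and they are given as a description.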

How the data were processed

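RNA-seq of EpiLCs was taken from 4 *Tet1* KO and 4 WT lines. Per the methods, adapters were removed by Trim Galore 0.6.4, Salmon 0.14.1 quantified transcripts and tximport (R 4.0.2) gave values per gene. The submitters' processing notes also name DESeq2 1.30.0, Seurat and the build mm10. The authors deposited estimated counts and, as a separate table, TPM of the same quantification. The methods name a stranded mRNA-seq kit for the libraries, and no strand setting for the quantification was given in the sources used here.

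The estimated counts were rounded, which changed 27.8% of values by at most 0.5. Column suffixes and line names were read from the headers. Of 54281 genes (205 without symbol), 17272 passed filterByExpr, and groups were compared with edgeR 4.0.16 (R 4.3.3, TMM, quasi-likelihood test, Benjamini-Hochberg adjustment, adjusted p under 0.05 called). The b2 against b1 fit kept genotype as a term. Alternatives used DESeq2 1.42.0, limma 3.58.1 on log2(TPM + 1) and log2(TPM + 0.1) for genes with a mean of at least 1 TPM, other scalings and filters, the suffix as a block or alone, and each line left out. The edgeR fit of KO against WT was tested on simulated data. Relative transcript length is the estimated count divided by TPM, scaled within line. Positions and annotated transcripts came from GENCODE M21, to which 53544 gene IDs matched with version. Intervals of fold changes are 95%.

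The titles of WT12 and WT17 disagree with their cell line labels (WT9 and WT12); the title was used, and both labels are WT. *Tet1* MUT samples and protein sequences are not analysed here. The genes and lists were chosen with earlier results of these data known. Named in the text were all 10 genes, *Tet1*, *Col4a1*, *Col4a2*, the unmatched *Ero1a* and *Ero1b*, and the 5 genes most correlated with *P4ha1*. Of each pathway list, genes among the 4 with the smallest p in either comparison or called were named. Of each cell type list, the 2 of highest mean TPM and called genes were named.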

Additional observations from a re-analysis of the deposited data

Results flagged for a closer look

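Each group of 4 lines was checked for a line standing apart from the others in CPM and in TPM, over 40 groups in all, of which chance flags about 1 in 20. In 4 groups a KO line stood apart. *P4ha1* was lowest in KO15 on both scales, with 16.8 CPM against 23.6 to 24.4 CPM in the other KO lines, and 2.90 TPM against 4.11 to 4.17 TPM in the other KO lines. *P4hb* was highest in KO15, with 355 CPM against 295 to 303 CPM in the other KO lines. *P4ha3* was lowest in KO9, with 0.0186 TPM against 0.0926 to 0.107 TPM in the other KO lines, and its 2.00 estimated counts there are few. Without KO15 the log2 fold change of *P4ha1* in KO against WT was 0.46 (edgeR, adjusted p = 0.581).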

How the results depend on the processing

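No paired analysis was possible because KO and WT lines share no replicate numbers and the sources used here do not say which lines are littermates. In KO against WT, 0 of the genes was called under every alternative run, and *P4ha1*, *Colgalt1* and *Crtap* kept their direction throughout. Directions of the smaller log2 fold changes turned. *P4ha2* was −0.011 with the suffix as a block, −0.16 with limma on log2(TPM + 1), −0.19 with log2(TPM + 0.1), −0.30 within b2 alone and −0.14 to 0.22 with 1 line left out. *P4hb* was 0.0080 with no filter beyond a count above 0, 0.010 within b2 and −0.074 to 0.049 with 1 line left out. *Plod1* was −0.025 within b1 and −0.13 to 0.23 with 1 line left out, and *Plod2* was −0.027 and −0.029 with the limma forms. *Plod3* was −0.044 within b2 and −0.050 to 0.11 with 1 line left out, and *Serpinh1* was −0.021 and −0.023 with the limma forms, −0.068 within b2 and −0.0096 to 0.17 with 1 line left out. In b2 against b1, *Plod2* was −0.024 with library size alone, −0.099 and −0.11 with the limma forms and −0.057 to 0.10 with 1 line left out. *Crtap* was −0.014, −0.031 and −0.036 under the same settings and −0.080 to 0.19 with 1 line left out. *Col4a2* was −0.034 with library size alone and −0.094 to 0.14 with 1 line left out. The number of the 9 genes called between suffixes was 4 with library size alone, 4 with no filter, 3 with DESeq2, 3 with at least 10 counts in every library, 0 with log2(TPM + 1), 0 with log2(TPM + 0.1) and 1 to 3 with 1 line left out; *Plod1* was called in each of these fits except both limma forms. The cause of these changes was not tested. The calls of *Col4a1* and *Col4a2* in KO against WT were lost within b2 and with both limma forms (*Col4a2* adjusted p up to 0.830), and that of *Tet1* with both limma forms. DESeq2 called 106 genes and edgeR 7 in KO against WT. At these totals *P4ha3* rests on at most 11.1 estimated counts per line, which limits any comparison of it.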
